A study of Mus musculus with 9 samples.

Results

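AMPA and kainate receptors are the ionotropic glutamate receptors that carry most fast excitatory current in the brain, and the genes described here encode all of their pore-forming subunits. They are the 4 AMPA subunit genes Gria1 to Gria4 and the 5 kainate subunit genes Grik1 to Grik5, chosen by symbol from both deposited tables, in which 23988 symbols are shared. All 9 were present and tested in both tables. RNA came from microdissected dentate gyrus of C57BL/6 mice aged 8 weeks, from 9 animals split evenly, 3 per group, into E0, E1 and E4, all of 1 strain and with no allele named in the labels. The labels give no unit for the number in a group name. As background to the study, E0 mice were not stimulated, and E1 and E4 mice were taken 1 h and 4 h after electroconvulsive stimulation, a seizure-inducing current used to activate granule neurons synchronously. The series asks what neuronal activation does to RNA expression and to chromatin accessibility in this tissue.

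As background, AMPA receptors assemble from GluA subunits and open within milliseconds of glutamate release. The GluA2 subunit, product of Gria2, makes the channel almost impermeable to calcium after its messenger is edited at the Q/R site, so the proportion of GluA2 sets what kind of receptor a neuron has. Kainate receptors combine the low-affinity subunits GluK1, GluK2 and GluK3 (Grik1 to Grik3), which can form channels alone, with the high-affinity subunits GluK4 and GluK5 (Grik4 and Grik5), which cannot. In the hippocampus kainate receptors are best known at the mossy fibre synapse, the output of granule neurons. In whole dissected tissue, a change in the number of cells of a type and a change in the RNA of each cell cannot be told apart.

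All values come from the authors' deposited tables, which compare E1 with E0 and E4 with E0. For a gene each lists the mean normalised count over 6 libraries and the log2 fold change with its SE (standard error) and adjusted p. Raised and lowered are used here for an adjusted p below 0.05. Individual mice are not listed, so the spread between mice enters only through the SE. Libraries were approximated at 6.14e+06 to 1.09e+07 reads in genes for E0, 1.94e+06 to 4.76e+06 for E1 and 1.002e+07 to 1.36e+07 for E4. At that depth Grik1, the least read member, would have had about 22.0 reads in the shallowest E1 library. Prox1, a defining granule neuron transcription factor picked as a check of the tissue, averaged 991 and 2680 normalised counts in the authors' deposited tables for E1 and E4. Mean counts of the 2 comparisons, here and below, pool E0 with E1 or E4 and lie on scales 1.89-fold apart. Prox1 itself was lowered in E1 (-0.66 ± 0.11, adjusted p = 5.6e-08) and raised in E4 (0.41 ± 0.10, adjusted p = 0.000278) in the authors' deposited tables. Of 122 entries in the partner, other glutamate receptor and marker lists used below only 1, the receptor gene Grm6, was listed at 0. C1ql2 and Nptx1 are counted in each list that holds them.

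The promoters of Gria2 and Gria4 are shown because both genes were raised in E1 and because their start regions are not annotated as exon in GENCODE M21. RefSeq promoter windows existed for 6 of the 9 members (build GRCm38.p6). The 250 bases before the start of Gria2 lie at chr3:80802836-80803085 and those of Gria4 at chr9:4796235-4796484, both on the minus strand. Capitals mark a match to the core of RE1, the element bound by the neuronal repressor REST, in Gria2, and to an EGR1 motif in Gria4.
Gria2: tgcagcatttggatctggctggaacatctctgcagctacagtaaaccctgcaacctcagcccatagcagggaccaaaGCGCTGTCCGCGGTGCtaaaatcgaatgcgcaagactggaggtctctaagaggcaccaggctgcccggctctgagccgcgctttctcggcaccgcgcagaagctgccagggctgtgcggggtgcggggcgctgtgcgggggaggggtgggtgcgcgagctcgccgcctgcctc
Gria4: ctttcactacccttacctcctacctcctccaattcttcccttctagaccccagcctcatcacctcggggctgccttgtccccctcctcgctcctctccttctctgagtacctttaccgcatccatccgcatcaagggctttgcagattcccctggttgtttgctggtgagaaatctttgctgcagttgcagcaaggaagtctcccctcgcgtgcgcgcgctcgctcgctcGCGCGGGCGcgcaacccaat
The RE1 core lies on the opposite strand. All motifs were searched on both strands, the EGR1 motif as GCGNGGGCG, and neither match overlaps another motif searched. The RE1 core was found in 6 of 32851 promoter windows of the same length (0.018%) and the EGR1 motif in 4.70%. The cAMP response element TGACGTCA (1.55% of windows), its part TGACG (17.8%) and the AP-1 motif TGANTCA (6.75%) were in none of the 6 members' windows, nor was the MEF2 core TATTTATA (1.56%). The E-box CANNTG, present in 66.2% of windows, was in those of Gria2, Gria4 and Grik3. These matches describe letters in a window and are not shown to be sites in use.

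In E1, 6 of the 9 members were called, against 35.5% of all 15660 genes tested. 5 were raised (20.6% of genes tested were) and 1 was lowered (15.0% were). The median log2 fold change of the 9 was 0.51, beside 0.02 over all genes tested. After correction for the length and GC of transcripts, described at Gria2, 3 were raised and 1 lowered. The median was then 0.20, beside -0.03 over annotated genes tested. No share of all genes called after that correction is given, so these corrected counts have no background beside them. The raised members were Gria2, Gria3 and Gria4 among AMPA subunits and Grik1 and Grik2 among kainate subunits, while Gria1 was lowered. In E4, 3 of the 9 were called, against 39.0% of 14455 genes tested, with 1 raised (20.7% of genes) and 2 lowered (18.3%). The median of the 9 there was 0.007, beside -0.007 over all genes tested. Both comparisons share the E0 mice.

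**Figure D1:**
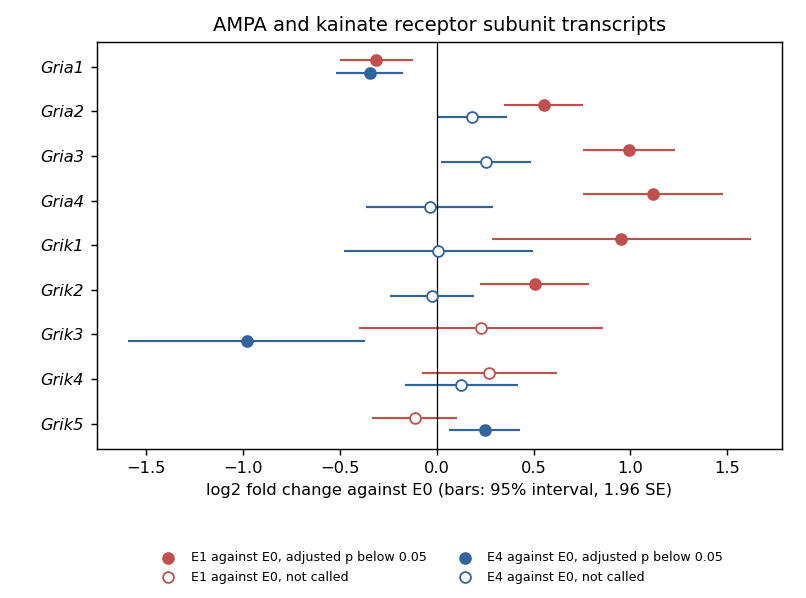
Log2 fold change against E0 of each subunit gene on the x axis, E1 in red and E4 in blue, with bars for the 95% interval from 3 mice a group; filled points have an adjusted p below 0.05 and open points do not. In E1 the filled points of Gria2, Gria3, Gria4, Grik1 and Grik2 lie right of 0, and in E4 only those of Gria1 and Grik3 (left) and Grik5 (right) are filled.

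Gria1 encodes GluA1, the AMPA subunit most tied to activity-dependent insertion at synapses. The authors' deposited tables for E1 and E4 give it 7241 and 13538 normalised counts on average, the highest of the family in both. It was lowered in E1 at -0.31 ± 0.10 (log2 fold change ± SE, adjusted p = 0.00452) and in E4 at -0.35 ± 0.09 (adjusted p = 0.000478) in the authors' deposited tables. These are falls to 0.805 (95% interval 0.708 to 0.917) and 0.786 (0.697 to 0.887) of E0. It was the only member called in both comparisons. The E4 value minus the E1 value was -0.03 ± 0.13, with a 95% interval from -0.29 to 0.22.

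Gria2 averaged 4503 and 7349 normalised counts. In the authors' deposited table for E1 it was raised 1.47-fold (0.55 ± 0.10, adjusted p = 1.23e-06). In that for E4 it stood at 0.18 ± 0.09 and was not called (adjusted p = 0.113), its interval running from 0.999-fold to 1.29-fold. The ratio of the Gria2 to the Gria1 level, each implied by the mean count and fold change, was 0.454 in E0, 0.829 in E1 and 0.655 in E4. The rise of Gria2 in E1 carries a limit that touches the ratio as well. The longest Gria2 transcript is 10371 bases with 36.8% GC, and long or GC-poor transcripts in general stood higher in E1. A trend of the fold change on transcript length and GC content, fitted over all annotated genes tested after the data were seen, amounted to 0.63 at Gria2 and left -0.08 (adjusted p = 0.60).

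Gria3 and Gria4 had the largest fold changes of the AMPA genes in E1. Gria3 (mean count 894), whose product GluA3 pairs mostly with GluA2, was raised 1.99-fold (0.99 ± 0.12, adjusted p = 7.39e-15, 95% interval 1.69 to 2.34) in the authors' deposited table. Gria4 (mean count 189) encodes GluA4, a subunit prominent in parvalbumin interneurons, and was raised 2.17-fold there (1.12 ± 0.19, adjusted p = 1.83e-08, interval 1.69 to 2.79). With the length and GC trend removed they kept their calls, at 0.63 (adjusted p = 2.33e-06) and 0.93 (adjusted p = 5.13e-06). In the authors' deposited table for E4, Gria3 stood at 0.25 ± 0.12 (adjusted p = 0.0762) and Gria4 at -0.04 ± 0.17 (adjusted p = 0.892), neither called. The 95% interval of Gria4 in E4 ran from 0.777-fold to 1.22-fold, below that of E1 at every point.

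Among low-affinity kainate subunits Grik1 and Grik2 were raised in E1. Grik1 (mean count 43.9), a subunit gene with strong expression in interneurons, stood higher by 1.94-fold per the authors' deposited table (0.95 ± 0.34, adjusted p = 0.0173), with a wide interval of 1.22 to 3.08. Grik2 (mean count 386), which encodes the main principal-neuron subunit GluK2, was raised 1.42-fold (0.51 ± 0.14, adjusted p = 0.00194) in the authors' deposited table. The Grik2 transcript is also long (9427 bases) and GC-poor (37.9%), the trend at it was 0.56, and -0.05 remained once it was removed (adjusted p = 0.830). Grik1, at 47.9% GC, kept its call at 0.92 (adjusted p = 0.0246). In E4 both were near 0, Grik1 at 0.007 ± 0.25 and Grik2 at -0.03 ± 0.11, in the authors' deposited table.

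Grik3 was called only in the comparison of E4, where it had the largest fall of the family. GluK3 forms receptors of unusually low glutamate affinity and is expressed by granule neurons. Its mean counts were 591 and 741. It stood at 0.23 ± 0.32 in E1 (adjusted p = 0.635) and was lowered to 0.506 of E0 in E4 (-0.98 ± 0.31, adjusted p = 0.00597, interval 0.331 to 0.774) in the authors' deposited tables. The SE of Grik3 was far above that of genes of like abundance. In E1, 99.4% of 1571 genes within 0.5 log2 of its mean count had a smaller SE, with a median of 0.128. In E4, 99.7% of 2122 such genes did, with a median of 0.110.

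The high-affinity subunit genes had small fold changes. Grik5, the most abundant kainate gene (mean counts 1367 and 2945), was not called in E1 (-0.11 ± 0.11, adjusted p = 0.473) and was raised 1.19-fold in E4 (0.25 ± 0.09, adjusted p = 0.0257) in the authors' deposited tables. That call was lost with the length and GC trend removed (0.19, adjusted p = 0.0982). Grik4 (mean counts 333 and 596), a gene known for high expression in CA3, was called in neither. It stood at 0.27 ± 0.18 in E1 and 0.13 ± 0.15 in E4 in the authors' deposited tables, so rises of up to 1.54-fold and 1.34-fold lie within its intervals. Its SE was also high for its abundance, above that of 92.7% of like genes in E1 and 96.7% in E4.

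**Figure D2:**
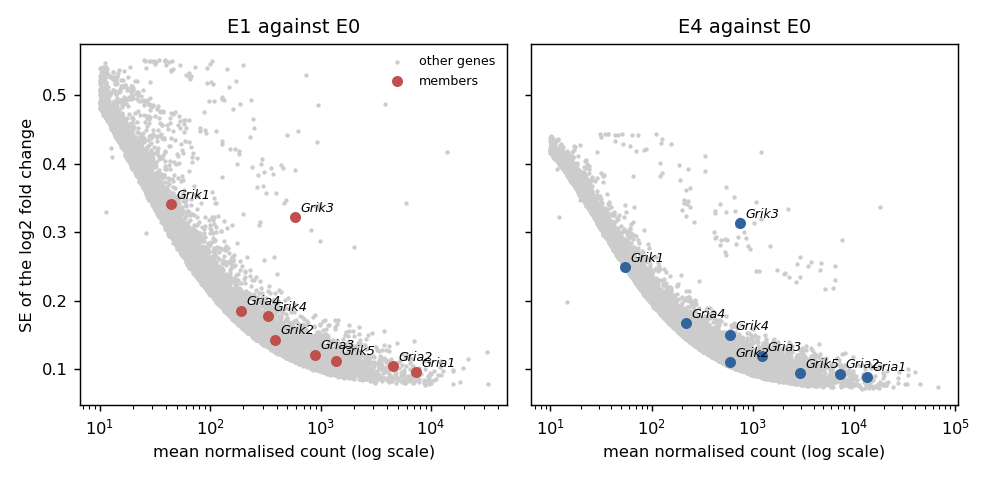
Standard error of the log2 fold change against the mean normalised count (log scale) for genes averaging 10 or more (grey) and the subunit genes (coloured), E1 left and E4 right. Grik3 lies well above the grey band at its abundance in both panels, at 0.32 and 0.31, while the AMPA genes lie in the band.

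Levels per kb of the longest annotated transcript, implied for each group and put on the scale of the E4 table, ordered the family in E0. Gria1 led at 2733 normalised counts per kb, followed by Gria2 at 664, Grik5 at 663 and Gria3 at 217. Grik3 (110), Grik4 (96.9), Grik2 (63.4), Gria4 (40.7) and Grik1 (14.8) followed. Gria2 and Grik5 changed places when the level was taken per kb of all annotated exons. No error per group can be given for these levels, so whether close neighbours such as Grik3 and Grik4 differ cannot be stated. The E0 level implied by the E4 table was 0.955 (Grik3) to 1.003 (Grik5) times that implied by the E1 table after scaling.

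The summed AMPA level per kb was 3654 in E0, 3701 in E1 and 3200 in E4. The share of Gria1 in it was 74.8% in E0, 59.5% in E1 and 67.2% in E4. That of Gria2 was 18.2%, 26.4% and 23.5%, and that of Gria3 5.93%, 11.7% and 8.07%. Gria4 made up 1.11%, 2.43% and 1.24%. With the length and GC trend removed, the summed AMPA level in E1 was 3140, or 85.9% of E0, with Gria1 at 66.9%, Gria2 at 19.99%, Gria3 at 10.7% and Gria4 at 2.46% of it. The sum in E4 was then 3081, or 84.3% of E0, close to that in E1. Gria1 made up 69.0% of it, Gria2 21.7%, Gria3 8.05% and Gria4 1.26%. Among kainate genes Grik5 held 70.0%, 62.1% and 76.8% of a summed level of 948, 984 and 1025 per kb. The share of Grik3 was 11.6% in E0, 13.7% in E1 and 5.41% in E4. These shares are a description of implied levels, with no test.

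**Figure D3:**
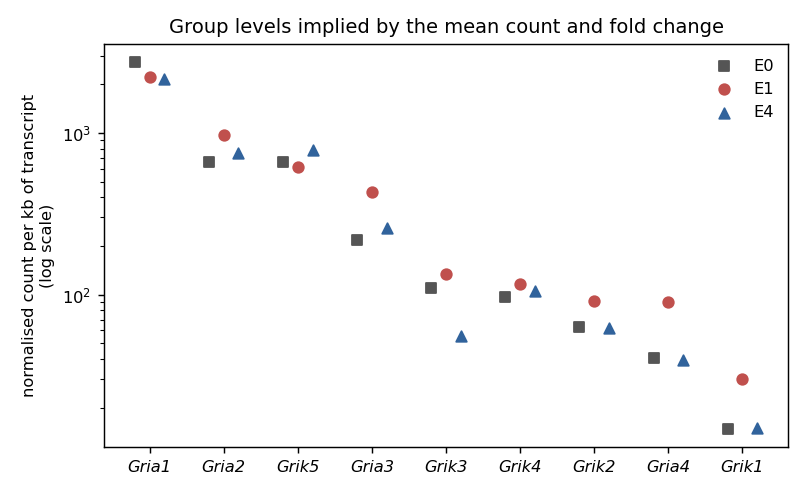
Implied level of each subunit gene in normalised counts per kb of transcript (log scale, y axis) for E0 (grey squares), E1 (red circles) and E4 (blue triangles), genes ordered by the E0 level; no error can be given per group. Gria3, Gria4 and Grik1 stand highest in E1 and lie nearer to E0 in E4, Gria1 is below E0 in both, and Grik3 drops from 110 to 55.5 between E0 and E4.

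E4 was set against E1 by subtracting one deposited log2 fold change from the other and dividing by the joint SE. Among 12769 genes, 36.7% were called, 17.7% higher and 19.0% lower in E4, and of the 9 members 5 were lower and 1 higher. Gria4 was lower in E4 by -1.15 ± 0.25 (adjusted p = 2.88e-05) and Gria3 by -0.74 ± 0.17 (adjusted p = 0.000103). Grik3 was lower by -1.21 ± 0.45 (adjusted p = 0.0224), Grik2 by -0.53 ± 0.18 (adjusted p = 0.0116) and Gria2 by -0.37 ± 0.14 (adjusted p = 0.0258). Grik5 was higher at 0.36 ± 0.15 (adjusted p = 0.0402). Grik1 missed the call at -0.95 ± 0.42 (adjusted p = 0.0641) and passed it when a correlation of 0.5 was allowed for the shared E0 mice (adjusted p = 0.00496). With the length and GC trend removed from both comparisons 3 calls were left, those of Gria3 (-0.46), Gria4 (-0.99) and Grik3 (-1.19). Grik5 then stood at 0.29 (adjusted p = 0.113), Gria2 at 0.14 and Grik2 at -0.08. With the trend fitted over genes averaging 50 or more, Grik5 was called at 0.34 (adjusted p = 0.0478) beside those 3. For neither fit is a share of all genes called given.

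Transcript properties of the members differ among AMPA and kainate genes alike. By genomic span 7 of the 9 fall in the longest decile of 12195 annotated genes that average 10 or more in each table, Gria2 (121 kb) and Grik5 (62.5 kb) being the others. That decile had a median log2 fold change of 0.18 in E1 and -0.11 in E4. Gria2, Gria3 and Grik2 fall in the decile with the lowest GC content of the transcript, with medians of 0.26 in E1 and 0.09 in E4. Gria2, Grik2 and Grik3 fall in the decile with the longest transcripts, with medians of 0.20 and 0.10. No GENCODE gene on the opposite strand overlaps a member.

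**Figure D4:**
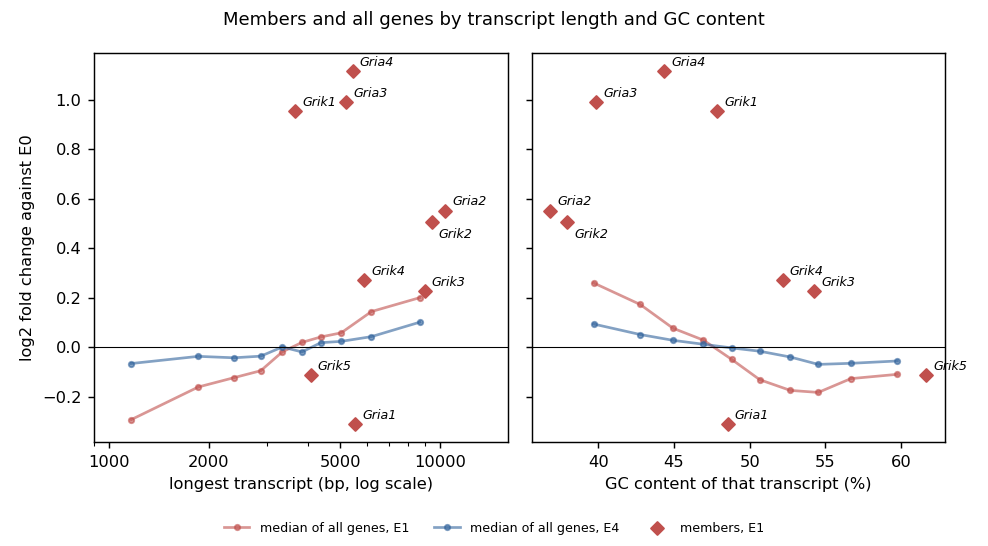
Log2 fold change against E0 (y axis) by length (left, log scale) and GC content (right) of the longest transcript; lines join the medians of deciles of all genes for E1 (red) and E4 (blue), and diamonds are the subunit genes in E1. The red line climbs from -0.29 to 0.20 with length and is at 0.26 in the decile of lowest GC, where Gria2, Gria3 and Grik2 lie; Gria4 and Grik1 lie well above it and Gria1 below it.

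Interneuron and granule neuron markers were examined beside these values. For the counts in these lists and in those below, 35.5% of all genes tested were called in E1 and 39.0% in E4. In E1 20.6% were raised and 15.0% lowered, and in E4 20.7% were raised and 18.3% lowered. No list was tested against these shares. In E1, 8 of 13 GABAergic interneuron markers were raised, none was lowered and 5 were not called, with a median of 0.70. Their summed level in the E1 table was 5566 in E0 and 8003 in E1, led in significance by Gad2 at 1.57 ± 0.12, and none was at 0. In E4 2 were raised, 2 lowered and 9 not called, with sums of 10484 and 10227. Gria4 and Grik1, subunits that interneurons express strongly, were raised in E1 as well, and the part of interneuron RNA in their values was not tested. The 5 interneuron markers not called in E1 were Pvalb, Vip, Cck, Dlx1 and Dlx2. Pvalb, which marks the interneurons where GluA4 is prominent, stood at 0.09 ± 0.31 (adjusted p = 0.857) in the authors' deposited table for E1. Of 8 granule neuron markers 7 were lowered and 1 raised in E1, with summed levels of 10534 in E0 and 6783 in E1. In E4 4 of them were lowered, 2 raised and 2 not called, with sums of 19927 and 16567. Their part in the falls of Gria1 and Grik3 was not tested.

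The auxiliary subunit genes of kainate receptors had larger fold changes in E1 than any pore subunit gene. Neto1 and Neto2, transmembrane proteins that slow channel closing and help place the receptor at synapses, were raised 3.20-fold (1.68 ± 0.13, adjusted p = 5.82e-38) and 3.24-fold (1.70 ± 0.20, adjusted p = 1.01e-15) in E1 in the authors' deposited table. They kept their calls with the length and GC trend removed, at 1.22 and 1.16. In E4 they stood at 0.24 ± 0.11 and 0.38 ± 0.18, not called although both unadjusted p were below 0.05, in the authors' deposited table. The difference between E4 and E1 was -1.44 ± 0.17 (adjusted p = 1.56e-16) for Neto1 and -1.32 ± 0.27 (adjusted p = 1.23e-05) for Neto2.

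AMPA auxiliary subunits went both ways. Of 15 in the tables, 2 were raised, 5 lowered and 8 not called in E1 (median -0.18), and 4 were raised, 5 lowered and 6 not called in E4 (median 0.03). Cacng2, which encodes the classical regulatory protein stargazin, was raised 2.01-fold in E1 (1.01 ± 0.19) and stood at 0.15 ± 0.15 in E4 in the authors' deposited tables. Cacng5, another member of that family, was lowered alike in both, at -1.69 ± 0.24 and -1.69 ± 0.20, in the authors' deposited tables. The cornichon gene Cnih3, whose product slows receptor desensitization, was lowered in E1 (-1.21 ± 0.15) and raised in E4 (0.79 ± 0.12) in the authors' deposited tables, a difference of 2.0 ± 0.19 (adjusted p = 1.49e-23). Gsg1l, which encodes a suppressor of AMPA currents, was not called in E1 (-0.28 ± 0.18) and was raised 3.68-fold in E4 (1.88 ± 0.13) in the authors' deposited tables. Shisa6 was raised in both (0.49 ± 0.15 and 0.61 ± 0.13) in the authors' deposited tables. Shisa9 (-0.43 ± 0.14 and -0.90 ± 0.12) and Prrt2 (-0.26 ± 0.10 and -1.30 ± 0.09) were lowered in both there. With the length and GC trend removed Prrt2 lost its E1 call, at -0.15 (adjusted p = 0.235). Cacng3 (0.45, adjusted p = 0.0229) and Prrt1 (0.38, adjusted p = 0.0221) then gained raised calls in E1. In E4 Cacng7 lost its lowered call, at -0.25 (adjusted p = 0.0537), and Shisa7 gained a lowered call, at -0.56 (adjusted p = 0.0480). The tilt of the E1 counts toward lowering therefore depends on that trend.

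Genes that assemble and anchor the receptors were mixed too. Of 5 biogenesis genes 2 were raised and 1 lowered in E1, and 1 was lowered in E4. Sacm1l stood at 0.79 ± 0.13 in E1 and Frrs1l, whose product acts in AMPA receptor assembly, at 0.52 ± 0.11 in the authors' deposited table. The hydrolase gene Abhd6 was lowered there (-0.43 ± 0.15). With the length and GC trend removed Frrs1l lost its call, at 0.25 (adjusted p = 0.0752), while Sacm1l and Abhd6 kept theirs. Cpt1c then gained a raised call in E1, at 0.33 (adjusted p = 0.0139). Cpt1c was lowered in E4 at -0.89 ± 0.11 in the authors' deposited table. Of 11 anchors and trafficking genes 4 were raised and 3 lowered in E1, 5 raised and 1 lowered in E4. Akap5, the kinase and phosphatase anchor near GluA1, was raised 2.79-fold in E1 (1.48 ± 0.16) and lowered to 0.542 of E0 in E4 (-0.88 ± 0.15) in the authors' deposited tables. Epb4.1l1, whose product links GluA1 to actin, went the other way, at -0.49 ± 0.09 and 0.62 ± 0.08, in the authors' deposited tables. Dlg4, which encodes the postsynaptic scaffold PSD-95, was lowered in E1 (-0.40 ± 0.10), and Dlg1, which encodes SAP97, was raised in E4 (0.62 ± 0.10), in the authors' deposited tables.

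Secreted and transsynaptic organizers included the strongest rises beside Arc. Of 7, 3 were raised and 2 lowered in E1, and 4 were raised and 2 lowered in E4. Nptx2, a secreted pentraxin, stood at 4.80 ± 0.17 and 3.10 ± 0.15 in the authors' deposited tables. Nptxr, the pentraxin receptor that gathers AMPA receptors from outside the cell, was raised 3.21-fold in E1 (1.68 ± 0.19) and 3.72-fold in E4 (1.90 ± 0.15) in the authors' deposited tables. Its partner gene Nptx1 was raised in E4 (1.25 ± 0.10, against 0.04 ± 0.11 in E1) in the authors' deposited tables, a difference of 1.22 ± 0.15 (adjusted p = 6.04e-14). C1ql3, which encodes a ligand of kainate receptors at mossy fibre synapses, was raised in E1 (0.53 ± 0.11) and lowered in E4 (-1.23 ± 0.09) in the authors' deposited tables. Its relative C1ql2, named after its values were seen and also in the granule neuron marker list, went the opposite way in the authors' deposited tables, at -0.71 ± 0.15 (adjusted p = 1.29e-05) and 0.52 ± 0.12 (adjusted p = 5.18e-05). Lgi1 was lowered in E1 at -0.56 ± 0.10 in the authors' deposited table. Among the 3 editing enzyme genes, Adarb1, whose product edits the Q/R site of the Gria2 transcript, was raised in E4 (0.37 ± 0.10, adjusted p = 0.00151) and stood at 0.22 ± 0.10 in E1 (adjusted p = 0.0655) in the authors' deposited tables. The catalytically inactive relative Adarb2 was raised in E1 (0.82 ± 0.17) in the authors' deposited table.

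**Figure D5:**
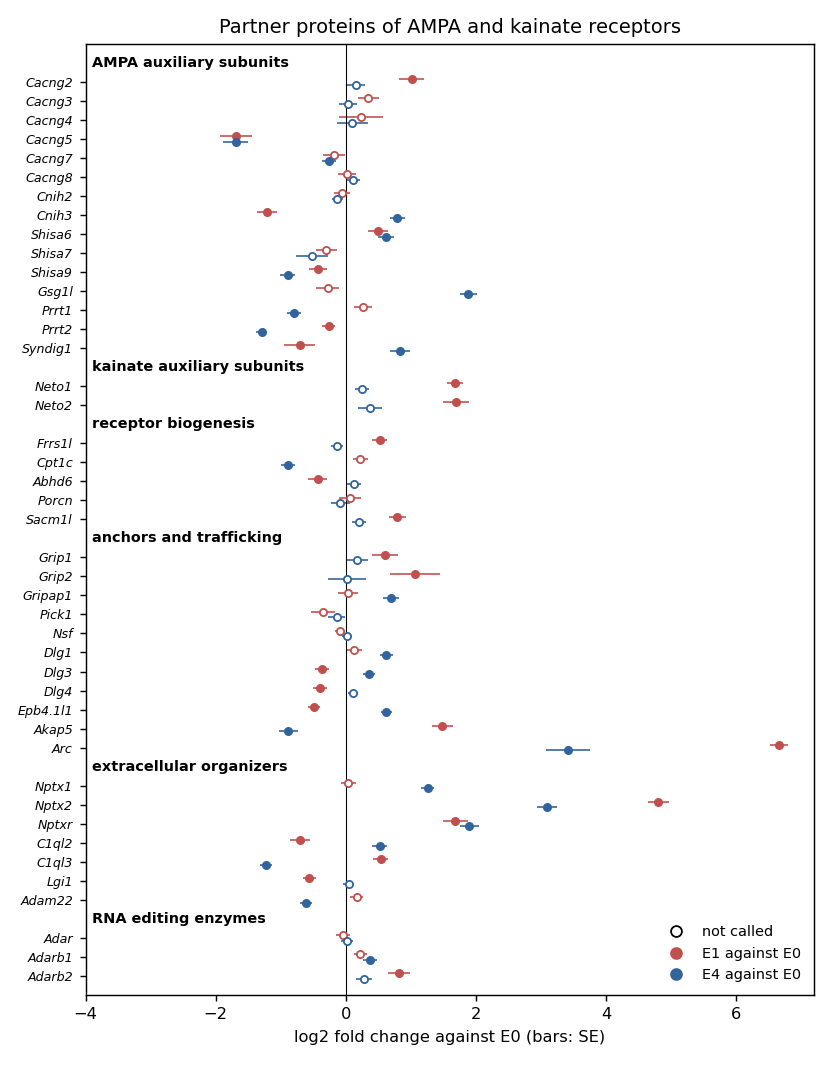
Log2 fold change against E0 (x axis, bars of 1 SE) of genes for partner proteins, grouped by role, E1 in red and E4 in blue; open points have an adjusted p of 0.05 or more. Neto1 and Neto2 are raised in E1 and near 0 in E4, Cnih3 and Epb4.1l1 pass from left to right of 0 and Akap5 from right to left, and Arc lies far right in both (6.65 and 3.41).

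The other glutamate receptor families had a different order of calls, which was not tested against that of AMPA and kainate genes. Of 7 NMDA receptor subunit genes none was called in E1 by the authors' DESeq2 test, 2 (Grin2b and Grin2c) having an unadjusted p below 0.05, and 5 were raised in E4. In E4 Grin2b stood at 0.92 ± 0.31 and Grin2d at 0.55 ± 0.16, in the authors' deposited tables. With the length and GC trend removed Grin2b lost its E4 call, at 0.70 (adjusted p = 0.0643), and Grin2d kept its own. Of 7 metabotropic receptor genes with an adjusted p, 3 were raised and 1 lowered in E1 and 3 raised in E4. Grm2 went from -2.09 ± 0.18 in E1 to 0.95 ± 0.12 in E4 in the authors' deposited tables. Neither delta receptor gene was called by DESeq2 in either comparison, 0 having an unadjusted p below 0.05, with Grid1 standing at -0.05 ± 0.14 and -0.18 ± 0.11 in the authors' deposited tables.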

How the data were processed

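Total RNA of the dentate gyrus of 9 mice was sequenced as Illumina libraries, one per animal, per the labels' protocols. The authors aligned reads with TopHat2 and compared groups with DESeq2 on mm9, per the submitters' processing notes, with no versions. For counting program, annotation and strand setting the sources used here give nothing. The deposited mean count is a signal, counts divided by size factors averaged over libraries. The deposited log2 fold changes and SEs are DESeq2's, per the file headers, and appear shrunken (median absolute value 0.142 in E1 and 0.106 in E4 at mean counts below 1). If so, the folds, intervals, implied levels, ratios and shares given here rest on shrunken values. Among the members Grik1 and Grik3 had the largest SEs. The deposited score is the log2 fold change over its SE, and the deposited p-value and adjusted p-value follow from it.

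Here 95% intervals are normal intervals from the SE. Depth was approximated from the lowest mean counts, which are spaced by what 1 read adds. A group level is the mean count split by the fold change, the E1 table being scaled by 1.89, the median ratio of E0 levels. E4 against E1 used a normal p with Benjamini-Hochberg adjustment over genes averaging 10 or more in each table, treating the comparisons as independent. That step was also run on simulated data, but the outcome is not given here and lends the calls no weight. Transcript length and GC came from GENCODE M21 (GRCm38), which covered 95.0% and 95.3% of genes tested. The length and GC trend is a centred quadratic fit, added after the data were seen. Python 3.11.15, pandas 2.3.3, numpy 2.4.6 and scipy 1.17.1 were used. Groups came from sample titles. The members and lists were chosen with earlier results of these data known. Text names all 9 members. From each partner list it names the called genes, or the 4 with the smallest adjusted p where more are called in a comparison, and from the comparator and marker lists at most 3 with the smallest adjusted p in E1. Prox1 was added to check the tissue, and the 5 interneuron markers not called in E1 were named too. Cacng3, Prrt1, Cacng7 and Shisa7 were named because the length and GC trend changed their calls. Nearest genes are the 3 at the smallest distance in both fold changes. Shisa8 was not matched, and Epb41l1 was matched as Epb4.1l1. The replication behind the p-values is the 3 mice of each group, and for E4 against E1 the same E0 mice enter both comparisons. Alternatives were other thresholds, filters, centring and the trend above.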

Additional observations from a re-analysis of the deposited data

Results flagged for a closer look

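The effect of stimulation on 6 subunit genes differed between the E1 and E4 comparisons by the test of the difference itself, given as the E4 minus the E1 log2 fold change. It was -0.37 for Gria2, -0.74 for Gria3, -1.15 for Gria4, -0.53 for Grik2, -1.21 for Grik3 and 0.36 for Grik5. The call of Grik3 rests on a gene whose SE stood above that of 99.4% of genes of like abundance in the E1 table. With the length and GC trend over annotated genes removed, Gria2 stood at 0.14 and Grik2 at -0.08, neither called. Grik5 stood at 0.29 (adjusted p = 0.113) and was called at 0.34 (adjusted p = 0.0478) with the trend of genes averaging 50 or more.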

How the results depend on the processing

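No paired analysis was possible because the tables hold no value per library, and for the same reason no replicate could be left out. The number of members called moved by more than 1.5 times in 3 cases. For these cases no share of all genes called is given. With a log2 change of at least 0.5 required, 1 in place of 3 was called in E4. With the length and GC trend removed and only genes averaging 50 or more kept, 3 in place of 6 were called in E1; that minimum alone leaves out Grik1 and gave 5, and the trend alone gave 4, Grik1 included. With the trend over all annotated genes removed, 3 in place of 6 were called for E4 against E1. Signs turned mainly under that trend, chosen after seeing the data: Gria2 in E1 went from 0.55 to -0.081, and to -0.19 with the trend of genes averaging 50 or more, and Grik2 from 0.51 to -0.050 and -0.14. For E4 against E1, Gria2 went from -0.37 to 0.14 and 0.20, and the uncalled Gria1 from -0.03 to 0.045 and 0.035. Uncalled values near 0 also crossed it in E4, Gria2 to -0.0038 with the trend of genes averaging 50 or more and Grik1 to -0.015 when centred on the median of such genes. The call of Grik5 for E4 against E1 was lost without a filter on mean count (adjusted p = 0.0513) and when centred (adjusted p = 0.0925). Causes were not tested. Depth limits Grik1 most.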

Other observations

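The genes nearest to 2 members in both deposited log2 fold changes were picked by the smallest distance among 9504 genes averaging 50 or more in each table, over 2 comparisons that share E0. Nearest to Gria3, the member with the smallest adjusted p in E1, were Sh3rf1 (1.02 in E1 and 0.24 in E4), Stk38l (0.97 and 0.22) and Alkbh5 (0.96 and 0.23) in the authors' deposited tables, and 25 genes lay within 0.1. Nearest to Gria1, the member with the smallest adjusted p in E4, were Slit1 (-0.32 and -0.34), Ptgr2 (-0.30 and -0.35) and Lap3 (-0.32 and -0.35) in the authors' deposited tables, and 152 genes lay within 0.1.

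Of the remaining marker lists, none of 4 oligodendrocyte precursor markers was called in E1 or E4 by the authors' DESeq2 test, and 0 had an unadjusted p below 0.05. Of 5 mossy cell markers 2 were raised in E1 and none was called in E4 by DESeq2, where 0 had an unadjusted p below 0.05. The 4 CA1 pyramidal markers had 1 raised and 1 lowered in each comparison. Of 6 oligodendrocyte markers 1 was raised and 2 lowered in E1, and none was called in E4 by DESeq2, where 0 had an unadjusted p below 0.05. Among 5 microglia markers only Csf1r was called, lowered in both comparisons. Of 7 astrocyte markers 4 were lowered in E1 and 1 in E4, with Aldh1l1 at -1.09 ± 0.15 in E1 in the authors' deposited table. Of 4 endothelial markers 2 were raised in E1 and none was called in E4 by DESeq2, where 2 had an unadjusted p below 0.05, with Flt1 at 1.49 ± 0.30 in E1 in the authors' deposited table. Of 6 markers of CA3 or CA2 pyramidal neurons 2 were raised and 1 lowered in E1, with Pcp4 at -0.82 ± 0.13 (adjusted p = 5.6e-09) and Amigo2 at 0.81 ± 0.16 (adjusted p = 4.47e-06) in the authors' deposited table. In E4 1 was raised and 2 lowered, the raised gene being Nptx1, already counted among the organizers above. Beside the counts of these marker lists, 35.5% of all genes tested were called in E1 and 39.0% in E4.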
